A study of Homo sapiens with 6 samples.

Results

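Interferon-stimulated genes are the genes that a cell switches on when interferon, a secreted antiviral signal, binds its receptor. In the textbook pathway, the receptor-bound kinases JAK1 and TYK2 phosphorylate STAT proteins, STAT2 among them, which join IRF9 in a complex that binds interferon-stimulated response elements in promoters; type II interferon acts mainly at gamma-activated sequences. The products sense viral RNA, block its translation, cut it, or coat the membranes of intracellular pathogens, as the guanylate-binding proteins do. The set described here holds 52 genes, chosen by symbol, of the 56637 symbols in the count tables. It mixes such genes with regulators of the response, and all are called interferon-stimulated genes or members below. It comprises 4 IFIT genes, 6 IFI genes, 6 OAS and MX genes, 6 sensors and effectors of RNA, 4 genes of the ISG15 system, 4 other effectors, 3 IFITM genes, 5 PARP and SAMD9 genes, 6 guanylate-binding proteins (GBP) and 8 STAT or IRF regulators.

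The RNA came from MM.1S, a human multiple myeloma line, which is a cancer of plasma cells. The tested cells carried a lentiviral short hairpin RNA against KDM6B, the demethylase of trimethylated lysine 27 on histone H3 that is also called JMJD3, and are named shKDM6B; the control cells carried a hairpin against luciferase, a gene human cells do not have, and are named shLuc. Both had been selected with puromycin, and each group had 3 libraries. The groups name a single hairpin target each and no rescue, so a loss of KDM6B and any off-target action of its hairpin cannot be told apart. No interferon treatment is named for either group. The labels do not say that the 3 libraries of a group came from separate cultures, so the spread that p-values measure is that of the libraries and may be technical. Libraries held 7952156 to 9848351 counts in shKDM6B cells and 7338393 to 8996159 counts in shLuc cells.

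KDM6B itself had 239, 270 and 348 counts in shKDM6B replicates 1 to 3, against 409, 505 and 437 counts in shLuc replicates 1 to 3. Its level was 60.6% of that in shLuc cells (log2 fold change -0.71 with an SE of 0.0735, adjusted p = 7.72e-08 by edgeR's quasi-likelihood test with Benjamini-Hochberg adjustment). All 8 plasma cell markers examined were expressed, with a summed level of 2380 to 2670 CPM (counts scaled to library size) in shKDM6B and 2500 to 2720 CPM in shLuc libraries. Of the 8, 2 were lower in edgeR's test, CD38 (log2 fold change -0.45, adjusted p = 3.88e-07) and TNFRSF17 (-0.37, adjusted p = 2.2e-06). Of the others, 1 was higher and 5 did not pass, against 18.9% lower and 20.1% higher among all tested genes. Fibroblast markers summed to 2.55, 3.94 and 0.908 CPM in shKDM6B replicates 1 to 3 and 1.51, 0.903 and 0.881 CPM in shLuc replicates 1 to 3. Keratin and other epithelial markers summed to 32.3, 44.7 and 1.82 CPM in shKDM6B replicates 1 to 3, against 12.1, 3.16 and 3.09 CPM in shLuc replicates 1 to 3. KRT5 (log2 fold change 2.29), KRT14 (2.93) and KRT19 (2.43) passed as higher in edgeR's test, calls lost by the DESeq2 Wald test. EPCAM went the other way without passing, with 7, 5 and 13 counts in shKDM6B libraries and 11, 12 and 20 in shLuc libraries. In the epithelial sum 3 libraries (shKDM6B replicates 1 and 2, shLuc replicate 1) stood apart. Fits without those 3 libraries are given for the named genes whose call they change. They keep only shKDM6B replicate 3 and shLuc replicates 2 and 3. With shKDM6B unreplicated, a call lost or gained in them is no test of what the keratin libraries do. Of cells that make much interferon or respond to it, markers of plasmacytoid dendritic cells summed to 1.82 to 2.39 CPM in shKDM6B and 1.1 to 2.15 CPM in shLuc libraries, with CLEC4C, LILRA4 and PTCRA at 0 counts in all 6 libraries. Monocyte markers summed to 2.62 to 4.78 CPM in shKDM6B libraries and 1.65 to 2.48 CPM in shLuc libraries. T cell markers summed to 4.9 to 6.06 CPM in shKDM6B libraries and 7.14 to 8.7 CPM in shLuc libraries, with CD3G at 0 counts throughout; CD3E made up 133 of the 146 T cell marker counts in shKDM6B and 193 of 202 in shLuc cells. The part of these markers in the results was not tested.

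Promoters are shown first for the genes the results turn on. Each window runs from 250 bases before to 50 bases after a start site of the RefSeq table (build GRCh38.p14) and is written 5′ to 3′ on the gene's strand. Capitals mark matches to the core of the interferon-stimulated response element, spelled GAAA, any 2 bases, GAAA on either strand, and overlapping matches run together.
IFIT3, chr10:89332279-89332578, + strand: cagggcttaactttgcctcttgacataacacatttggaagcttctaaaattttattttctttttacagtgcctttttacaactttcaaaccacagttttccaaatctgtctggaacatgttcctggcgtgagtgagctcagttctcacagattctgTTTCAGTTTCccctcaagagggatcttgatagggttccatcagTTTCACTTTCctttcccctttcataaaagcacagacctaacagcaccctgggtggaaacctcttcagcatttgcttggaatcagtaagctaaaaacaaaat
IFIT1, chr10:89392373-89392672, + strand: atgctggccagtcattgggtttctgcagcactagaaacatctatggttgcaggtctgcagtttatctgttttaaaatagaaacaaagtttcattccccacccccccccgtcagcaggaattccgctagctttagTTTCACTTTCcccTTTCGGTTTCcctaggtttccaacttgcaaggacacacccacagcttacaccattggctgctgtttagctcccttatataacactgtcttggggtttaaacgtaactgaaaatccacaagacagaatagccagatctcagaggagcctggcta
IFIT5, chr10:89414318-89414617, + strand: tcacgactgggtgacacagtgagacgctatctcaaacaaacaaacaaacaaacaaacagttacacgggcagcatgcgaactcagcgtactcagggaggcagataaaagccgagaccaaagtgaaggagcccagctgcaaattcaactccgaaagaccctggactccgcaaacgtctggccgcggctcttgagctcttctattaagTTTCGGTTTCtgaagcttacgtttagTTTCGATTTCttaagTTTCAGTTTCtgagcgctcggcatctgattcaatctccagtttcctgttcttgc
GBP1, chr1:89065159-89065458, - strand: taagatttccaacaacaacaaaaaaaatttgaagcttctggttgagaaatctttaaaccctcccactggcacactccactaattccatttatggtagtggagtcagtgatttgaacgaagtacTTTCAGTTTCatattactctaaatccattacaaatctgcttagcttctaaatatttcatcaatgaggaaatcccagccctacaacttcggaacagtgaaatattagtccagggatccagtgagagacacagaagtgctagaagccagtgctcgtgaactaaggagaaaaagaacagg
GBP4, chr1:89198893-89199192, - strand: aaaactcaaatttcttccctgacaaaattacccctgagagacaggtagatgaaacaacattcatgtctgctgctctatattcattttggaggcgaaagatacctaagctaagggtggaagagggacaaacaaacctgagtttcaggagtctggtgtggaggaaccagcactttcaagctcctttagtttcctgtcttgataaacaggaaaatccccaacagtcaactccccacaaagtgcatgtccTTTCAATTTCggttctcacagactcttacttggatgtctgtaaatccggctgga
GBP6, chr1:89363809-89364108, + strand: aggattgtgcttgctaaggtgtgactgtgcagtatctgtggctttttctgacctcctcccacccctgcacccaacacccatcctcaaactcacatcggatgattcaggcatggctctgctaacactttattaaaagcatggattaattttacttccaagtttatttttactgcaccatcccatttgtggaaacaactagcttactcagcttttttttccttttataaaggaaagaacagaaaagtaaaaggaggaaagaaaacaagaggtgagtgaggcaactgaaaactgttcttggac
DTX3L, chr3:122564088-122564387, + strand: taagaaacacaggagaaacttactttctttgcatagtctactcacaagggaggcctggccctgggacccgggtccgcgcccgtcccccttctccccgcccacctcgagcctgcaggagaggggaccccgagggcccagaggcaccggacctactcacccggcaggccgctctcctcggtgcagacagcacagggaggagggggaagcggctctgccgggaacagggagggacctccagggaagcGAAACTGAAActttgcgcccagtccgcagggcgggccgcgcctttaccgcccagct
IFIH1, chr2:162318635-162318934, - strand: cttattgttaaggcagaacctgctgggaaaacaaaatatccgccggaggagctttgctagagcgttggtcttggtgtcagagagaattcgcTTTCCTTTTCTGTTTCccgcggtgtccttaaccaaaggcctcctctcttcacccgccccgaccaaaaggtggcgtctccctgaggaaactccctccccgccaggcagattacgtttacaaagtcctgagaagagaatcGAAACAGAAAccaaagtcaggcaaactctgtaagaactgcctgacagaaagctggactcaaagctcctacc

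In the IFIT3 window shown, 1 of 2 listed for the gene, the matches began 94 and 51 bases before the start. The other IFIT3 window (chr10:89327747-89328046) had matches 156 and 122 bases before its own start. In IFIT1 the matches began 116 and 103 bases before the start, and in IFIT5 45, 19 and 4 bases before it. GBP1 had a match 127 bases and GBP4 a match 4 bases before the start, whereas the GBP6 window held none. DTX3L, shown because it lies head to head with PARP9, had its match 6 bases before the start, and the same 10 bases (chr3:122564332-122564341) were the match in a PARP9 window. IFIH1, shown as a gene that was higher in shKDM6B cells, had matches 159, 153 and 21 bases before its start. The promoter table held 39 of the 52 genes, and 26 of these 39 (66.7%) had the core in at least 1 listed window, against 1195 of 27305 genes (4.38%) in the whole table. The longer form GAAAC, any 1 base, GAAAC, whose matches also hold the core, was in 15 of 39 (38.5%), against 80 of 27305 (0.293%). The gamma-activated sequence TTC, any 3 bases, GAA, which reads the same on both strands, was in 11 of 39 (28.2%), against 2560 of 27305 (9.38%). A match describes the letters in a window and shows neither binding nor its absence.

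By edgeR's test with TMM scaling over all genes, most tested interferon-stimulated genes were lower in shKDM6B cells. The largest falls were in IFIT3, GBP4 and GBP6, which reached the count filter only through shLuc libraries, and in IFIT1 and GBP1. Of the 52, 39 had enough counts to be tested and 13 did not. Of the 39, 24 were lower past the threshold (61.5%), 4 were higher (10.3%) and 11 did not pass. Across all 13839 genes tested, 39.1% passed at an adjusted p under 0.05, with 18.9% lower and 20.1% higher, so the share of higher members was below and the share of lower members above that of all genes. The 39 had a median log2 fold change of -0.29, against -0.01 over all genes, and 32 of the 39 values were negative. Values did not overlap between groups for 30 of the 39, with 26 lower and 4 higher; among all tested genes 48.4% did not overlap, 23.9% lower and 24.5% higher. With TMM factors taken from sparsely counted genes, those with under 0.03 counts per base of exon, 18 members were lower and 4 higher, and over all genes 13.1% were lower and 23.7% higher. A fall of 2-fold or more was seen in 7 of the 39, of which 3 (IFIT3, GBP4 and GBP6) reached the count filter only through shLuc libraries, against 2.11% of all tested genes. In bulk RNA, fewer cells with a transcript and less of it per cell cannot be told apart.

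A gene that reaches the count filter only through shLuc libraries is tested because it is high there, so a fall is favoured beforehand. IFIT3, IFITM1, GBP4 and GBP6 were such genes, with fewer than 3 shKDM6B libraries at the minimum of 1.15 CPM. The other 35 tested members comprised 20 lower, 4 higher and 11 not past the threshold, with a median log2 fold change of -0.21 and 4 falls of 2-fold or more. Among the 12 tested members with a mean under 10 CPM, 10 were lower and none higher, with a median of -1.03 and 6 falls of 2-fold or more; of the 3688 genes at that level, 15.8% were lower, 9.35% higher and 6.18% lower by 2-fold or more. All 4 members that reached the filter only through shLuc were among these 12; of the other 8, 6 were lower and none higher, with a median of -0.70 and 3 falls of 2-fold or more. Among the 11 members at 10 to 50 CPM, 8 were lower and none higher, with a median of -0.47, against 21.1% lower and 21.3% higher of 3810 genes. Among the 16 members at 50 CPM or more, 6 were lower, 4 higher and 6 not past the threshold, with a median of -0.09, against 19.5% lower and 25.6% higher of 6341 genes.

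**Figure D1:**
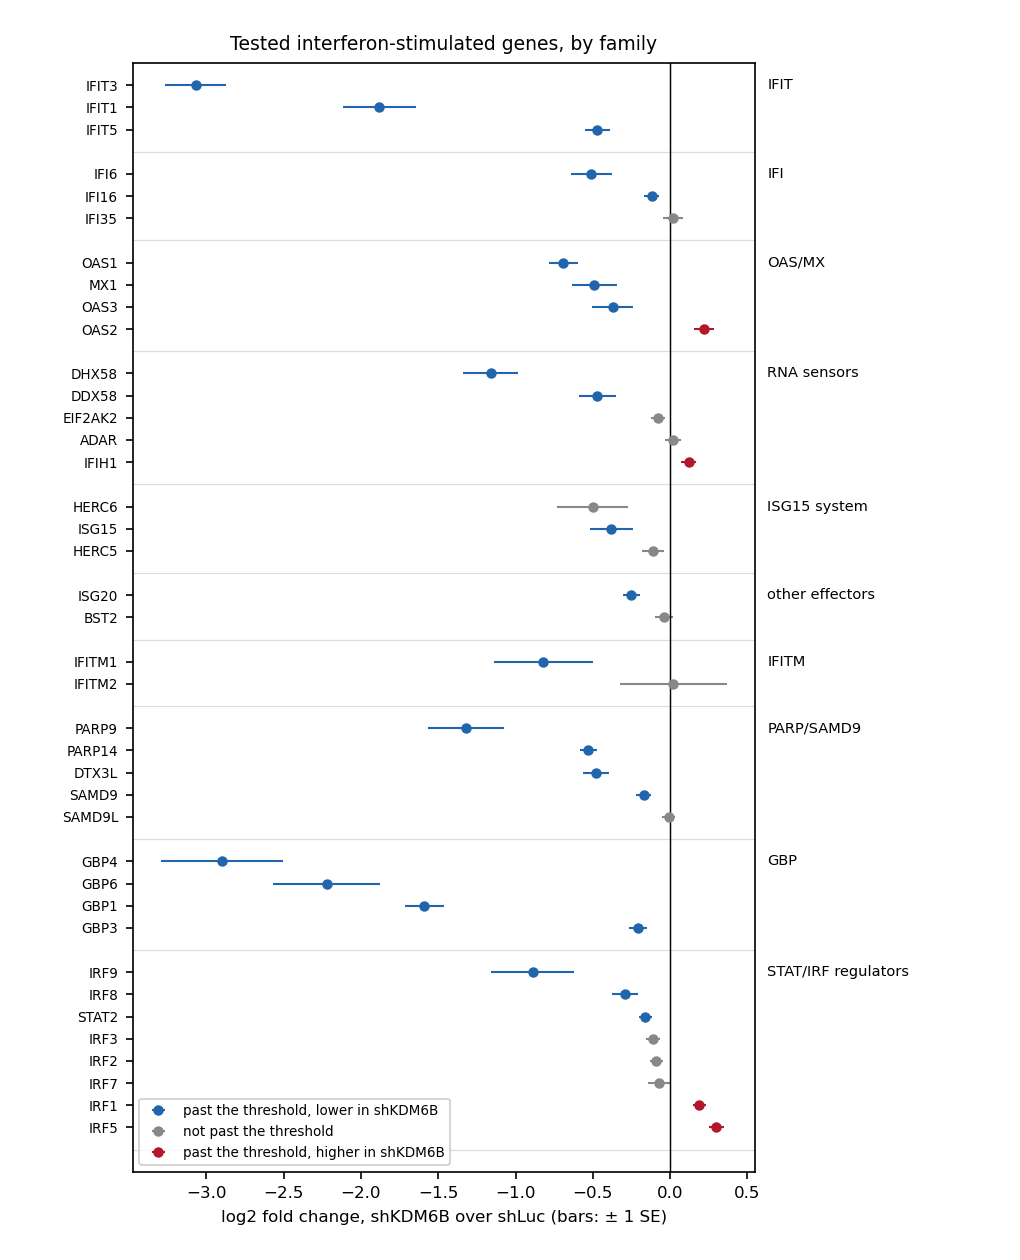
Log2 fold change, shKDM6B over shLuc, of the 39 tested interferon-stimulated genes, grouped by family down the page. Points are edgeR estimates from 3 libraries per group and bars are ± 1 SE; blue points passed at an adjusted p under 0.05 and were lower, red points passed and were higher, and grey points did not pass. IFIT3 (-3.07), GBP4 (-2.9) and GBP6 (-2.22) lie farthest to the left, and the red points, OAS2, IFIH1, IRF1 and IRF5, reach at most 0.3.

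**Figure D2:**
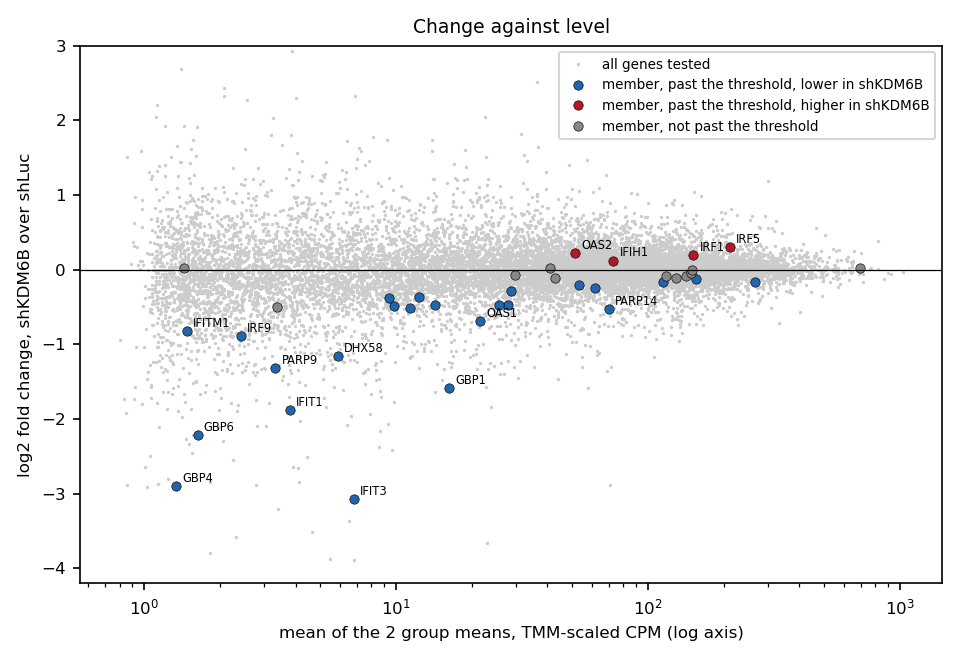
Log2 fold change against mean level in TMM-scaled CPM (log axis) for all 13839 tested genes (small grey dots) and the 39 tested members (large points, coloured by call). The members farthest below 0 are at low levels, and all 4 higher members lie at 50 CPM or more.

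The IFIT genes encode RNA-binding proteins with tetratricopeptide repeats, and all 3 tested members fell. Among all tested genes 18.9% were lower. IFIT3 reached the count filter only through shLuc libraries, so its fall was favoured beforehand. IFIT3, which binds and stabilises IFIT1, had 8, 12 and 18 counts in shKDM6B replicates 1 to 3, against 82, 114 and 114 counts in shLuc replicates 1 to 3. The highest shKDM6B value was thus far below the lowest shLuc value. The level was 1.42 ± 0.399 CPM in shKDM6B cells and 12.2 ± 0.856 CPM in shLuc cells (SD, n = 3 each; log2 fold change -3.07 with an SE of 0.196, adjusted p = 6.06e-11, edgeR). IFIT1, which binds RNA that lacks the host's cap methylation, had 15, 13 and 14 counts in shKDM6B libraries, against 45, 62 and 43 counts in shLuc libraries. The groups did not overlap (log2 fold change -1.88 with an SE of 0.236, adjusted p = 1.3e-06, edgeR). IFIT5, which binds RNA with a 5′ triphosphate, had the highest level per kilobase of exon of the 3 and changed least, with 190, 196 and 227 counts in shKDM6B libraries and 229, 317 and 274 counts in shLuc libraries. Once scaled for depth, it stood at 23.5 ± 0.639 CPM in shKDM6B cells and 32.5 ± 2.94 CPM in shLuc cells (SD, n = 3 each; log2 fold change -0.47 with an SE of 0.081, adjusted p = 7.22e-05, edgeR), without overlap. IFIT2 had 1, 2 and 0 counts in shKDM6B libraries and 2 in each shLuc library, too few to be tested. These 4 genes are neighbours on chromosome 10, and the fall along the cluster was unequal.

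The guanylate-binding proteins, large GTPases that assemble on pathogen-containing vacuoles, were lower in the 4 of 6 that could be tested. Among all tested genes 18.9% were lower. GBP4 and GBP6 reached the count filter only through shLuc libraries, so a fall was favoured beforehand in these genes. GBP1 had 62, 76 and 75 counts in shKDM6B replicates 1 to 3, against 148, 220 and 254 counts in shLuc replicates 1 to 3. No shKDM6B library came near a shLuc library (8.18 ± 0.796 CPM in shKDM6B and 24.4 ± 3.85 CPM in shLuc cells, SD, n = 3 each; log2 fold change -1.59 with an SE of 0.126, adjusted p = 1.33e-09, edgeR). In the GENCODE v29 transcripts 9.62% of the 50-base stretches of GBP1 occur also in other genes, GBP1P1 and GBP3 foremost, so part of its reads may have been counted elsewhere or not at all. GBP4 had 1, 4 and 3 counts in shKDM6B libraries, against 17, 21 and 22 counts in shLuc libraries. Its shLuc values were close together, and its shKDM6B values were a few counts only (log2 fold change -2.9 with an SE of 0.394, adjusted p = 3.76e-06, edgeR). GBP6 had 3, 5 and 7 counts in shKDM6B libraries, against 15, 30 and 24 counts in shLuc libraries (log2 fold change -2.22 with an SE of 0.346, adjusted p = 2.19e-05, edgeR). Again the groups did not overlap. GBP3, the family member with the highest level per kilobase of exon, had 397, 413 and 481 counts in shKDM6B libraries, against 439, 512 and 487 counts in shLuc libraries. Scaled for depth, it was 49.5 ± 0.994 CPM in shKDM6B cells and 57.3 ± 3.35 CPM in shLuc cells (SD, n = 3 each; log2 fold change -0.21 with an SE of 0.0574, adjusted p = 0.00604, edgeR). That call was lost with scaling on sparsely counted genes (adjusted p = 0.0733), without the 3 libraries with keratin counts (adjusted p = 0.0936) and by the DESeq2 Wald test (adjusted p = 0.0898), in a range of 0.0014 to 0.0936 over 16 alternatives. GBP2 had 0, 0 and 1 counts in shKDM6B libraries and 2, 3 and 2 in shLuc libraries, and GBP5 had 1 count in all 6 libraries together, in shKDM6B replicate 1. Neither was tested.

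**Figure D3:**
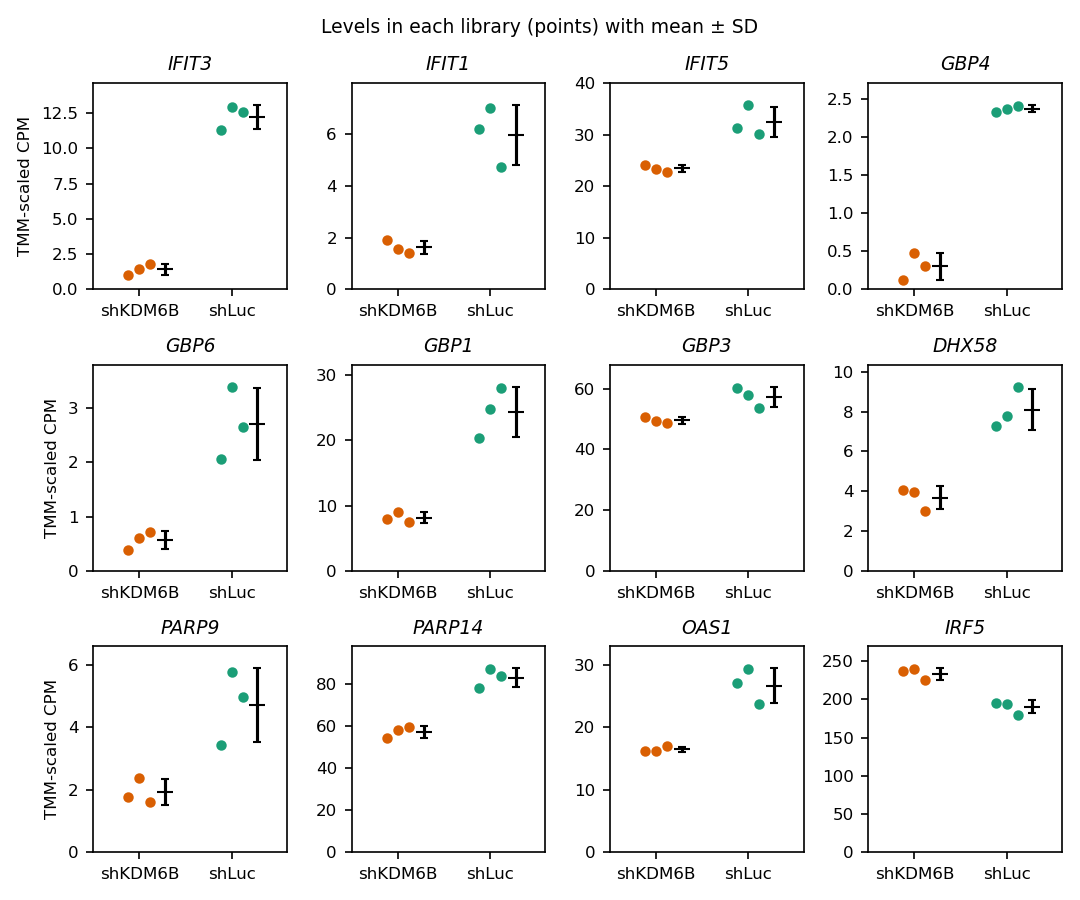
Level of 12 interferon-stimulated genes in each library, in TMM-scaled CPM, with shKDM6B at the left and shLuc at the right of each panel. Points are libraries and the black mark with its bar is the mean ± SD (n = 3); each axis starts at 0 and has its own scale. The 12 genes were picked from members past the threshold, and IFIT3, GBP4 and GBP6 reached the count filter only through shLuc libraries. That the groups do not overlap in any panel follows in part from this choice. Among all tested genes 48.4% did not overlap. IRF5 is the panel in which shKDM6B lies above shLuc.

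The OAS enzymes sense double-stranded RNA and make the messenger that activates RNase L, and they did not move together. OAS1 had 128, 136 and 168 counts in shKDM6B replicates 1 to 3, against 197, 259 and 215 counts in shLuc replicates 1 to 3. Every shKDM6B value lay below every shLuc value (16.5 ± 0.397 CPM in shKDM6B and 26.7 ± 2.8 CPM in shLuc cells, SD, n = 3 each; log2 fold change -0.69 with an SE of 0.0941, adjusted p = 4.21e-06, edgeR). OAS2, in the same cluster on chromosome 12, was higher, with 444, 418 and 586 counts in shKDM6B libraries and 341, 436 and 419 counts in shLuc libraries. In CPM its lowest shKDM6B value was 49.9 and its highest shLuc value 49.2 (log2 fold change 0.22 with an SE of 0.0638, adjusted p = 0.00791, edgeR). The call was lost without shKDM6B replicate 3 (log2 fold change 0.17, adjusted p = 0.0624) and by the DESeq2 Wald test (adjusted p = 0.0805), with a range of 0.000451 to 0.0805 over 16 alternatives. OAS3 was lower (log2 fold change -0.37 with an SE of 0.133, adjusted p = 0.0334, edgeR), a call lost under 6 of 16 alternatives. Without shLuc replicate 2 its log2 fold change was -0.19 and the adjusted p 0.283, the highest of the 16, and without shKDM6B replicate 1, 2 or 3 the adjusted p was 0.0609, 0.0519 or 0.0941. MX1, a dynamin-like GTPase that traps viral nucleocapsids, had 10.4, 6.81 and 7.37 CPM in shKDM6B libraries, against 11.1, 12 and 11.1 CPM in shLuc libraries. The groups did not overlap, but shKDM6B replicate 1 came close to shLuc (log2 fold change -0.49 with an SE of 0.146, adjusted p = 0.0104, edgeR). The adjusted p was 0.0658 without shKDM6B replicate 2, 0.0509 without shKDM6B replicate 3 and 0.0895 by the DESeq2 Wald test, the highest of 16 alternatives. MX2, the next gene, had 3 counts in each shKDM6B library, against 13, 9 and 13 counts in shLuc libraries, under the filter. With no filter on low counts its log2 fold change was -1.97 (adjusted p = 0.000554, edgeR). Of the untested members only MX2, DDX60 and IFI44 passed in that fit, and IFI44L had no counts to fit. The adjusted p values of the unfiltered edgeR fit differ from those of the filtered one, with 7.79e-53 against 6.06e-11 for IFIT3 and 0.11 against 0.0448 for IFIH1. KRT5, with 53, 110 and 0 counts in shKDM6B and 28, 4 and 0 in shLuc libraries, had 6.11e-20 against 0.0271. Passing without the filter therefore says little for MX2, DDX60 and IFI44. OASL, which lacks the synthetase activity, had 6, 5 and 4 counts in shKDM6B libraries and 4, 5 and 4 counts in shLuc libraries and was not tested.

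The cytoplasmic RNA sensors also differed from each other. DHX58 (LGP2), which modulates the other sensors, had 32, 33 and 30 counts in shKDM6B replicates 1 to 3, against 53, 69 and 84 counts in shLuc replicates 1 to 3. It fell to 3.68 ± 0.569 CPM in shKDM6B cells, against 8.11 ± 1.03 CPM in shLuc cells (SD, n = 3 each; log2 fold change -1.16 with an SE of 0.179, adjusted p = 1.92e-05, edgeR), with no overlap. DDX58 (RIG-I), the sensor of short triphosphate RNA, had 13.2, 11.1 and 11.9 CPM in shKDM6B libraries, against 15.2, 19.7 and 15 CPM in shLuc libraries. Here too the groups did not overlap (log2 fold change -0.47 with an SE of 0.122, adjusted p = 0.00384, edgeR). IFIH1 (MDA5), the sensor of long double-stranded RNA, was higher, with 78.4, 73.7 and 76.2 CPM in shKDM6B libraries and 69.5, 70.8 and 69.1 CPM in shLuc libraries. The difference was small (log2 fold change 0.12 with an SE of 0.048, adjusted p = 0.0448, edgeR), and the call was lost under 12 of 16 alternatives, without each of the 6 libraries in turn among them (adjusted p 0.0559 to 0.134), as well as without the 3 libraries with keratin counts (0.251), with a highest adjusted p of 0.268 by the DESeq2 Wald test. DDX60, a helicase that promotes RIG-I signalling, had 2, 1 and 1 counts in shKDM6B libraries, against 6, 5 and 16 counts in shLuc libraries, under the filter. With no filter its log2 fold change was -2.69 (adjusted p = 0.000268, edgeR), and 16 of its 27 shLuc counts were in replicate 3. EIF2AK2 (PKR), the kinase that stops translation on double-stranded RNA, did not pass (138 ± 3.37 CPM in shKDM6B and 146 ± 6.63 CPM in shLuc cells, SD, n = 3 each; adjusted p = 0.155, edgeR). ADAR, which edits adenosine to inosine in double-stranded RNA, did not pass either (701 ± 26.3 CPM in shKDM6B and 691 ± 28 CPM in shLuc cells, SD, n = 3 each; adjusted p = 0.776, edgeR).

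PARP9 and DTX3L, which form a complex that adds ADP-ribose and ubiquitin, and PARP14, an ADP-ribosyltransferase, lie in 1 cluster on chromosome 3 and all fell. PARP9 had 14, 20 and 16 counts in shKDM6B replicates 1 to 3, against 25, 51 and 45 counts in shLuc replicates 1 to 3 (log2 fold change -1.32 with an SE of 0.247, adjusted p = 0.000183, edgeR). DTX3L had 21.5, 21.5 and 21.2 CPM in shKDM6B libraries, against 27.2, 30.2 and 32 CPM in shLuc libraries (log2 fold change -0.48 with an SE of 0.0817, adjusted p = 5.78e-05, edgeR). PARP14 had 54.3, 58.2 and 59.8 CPM in shKDM6B libraries, against 78.1, 87.1 and 84 CPM in shLuc libraries (log2 fold change -0.53 with an SE of 0.0541, adjusted p = 6.1e-08, edgeR). In all 3 genes every shKDM6B library was below every shLuc library. PARP9 and DTX3L share a stretch of exon on opposite strands, 2.43% of PARP9 and 3.7% of DTX3L in GENCODE v29, where reads of a kit that does not mark strand cannot be told apart. Of the paralogous translation inhibitors next to each other on chromosome 7, SAMD9 was lower at 108 ± 1.91 CPM in shKDM6B and 122 ± 7.87 CPM in shLuc cells (SD, n = 3 each; log2 fold change -0.17 with an SE of 0.048, adjusted p = 0.0061, edgeR). SAMD9L did not pass, at 149 ± 2.92 CPM in shKDM6B and 150 ± 1.9 CPM in shLuc cells (SD, n = 3 each; adjusted p = 0.884, edgeR). The SAMD9 call was lost without shLuc replicate 3 (adjusted p = 0.0542), by the DESeq2 Wald test (0.0527) and with scaling on sparsely counted genes (0.178, the highest of 16 alternatives).

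**Figure D4:**
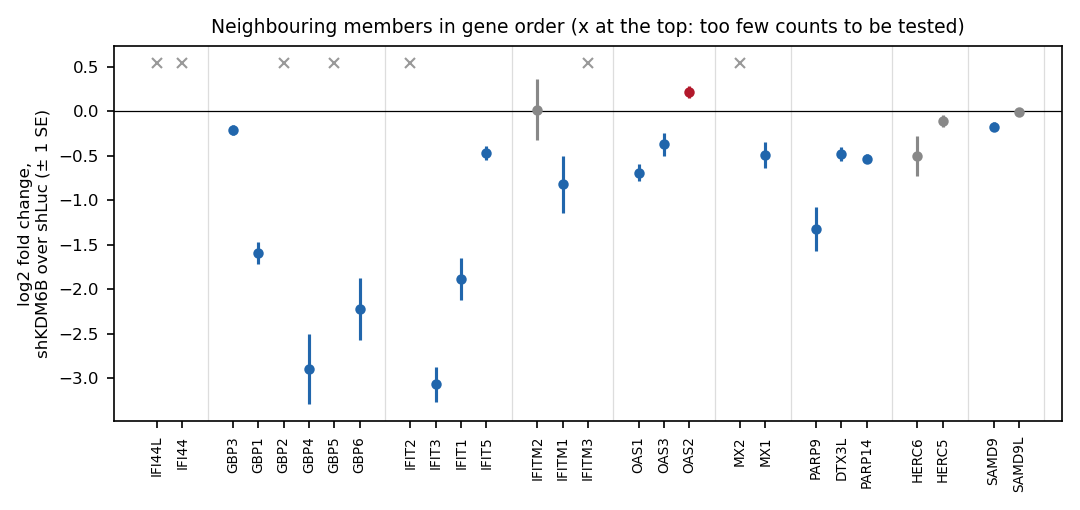
Log2 fold change, shKDM6B over shLuc, of members that are neighbours among protein-coding genes, in the order of the RefSeq gene table; thin lines part the 9 clusters. Points are edgeR estimates with bars of ± 1 SE, coloured as lower (blue), higher (red) or not past the threshold (grey), and a cross at the top marks a gene with too few counts. Neighbours differ in size, as in the IFIT cluster (-3.07, -1.88 and -0.47), and OAS2 lies on the other side of 0 from OAS1 and OAS3.

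ISG15 is a ubiquitin-like protein, HERC5 its main ligase in human cells and USP18 the protease that removes it. ISG15 was lower (8.16 ± 0.407 CPM in shKDM6B and 10.6 ± 1.6 CPM in shLuc cells, SD, n = 3 each; log2 fold change -0.38 with an SE of 0.139, adjusted p = 0.0362, edgeR). Its call was lost under 6 of 16 alternatives, with adjusted p values of 0.073 without shKDM6B replicate 1, 0.103 without shKDM6B replicate 2 and 0.223 without shLuc replicate 2, the highest of the 16, where the log2 fold change was -0.24. It was also lost without the 3 libraries with keratin counts (0.2). HERC5 (log2 fold change -0.11, adjusted p = 0.248) and its relative HERC6 (-0.5, adjusted p = 0.0893) did not pass in edgeR's test. Without shKDM6B replicate 1, HERC6 passed (-0.68, adjusted p = 0.0454, edgeR). Its log2 fold change was -0.88 without the 3 libraries with keratin counts, a fit with only 1 shKDM6B library. USP18 had 3 counts in all in shKDM6B cells and 7 in shLuc cells. ISG20, an exonuclease that degrades RNA, was lower at 56.3 ± 1.3 CPM in shKDM6B and 66.9 ± 2.81 CPM in shLuc cells (SD, n = 3 each; log2 fold change -0.25 with an SE of 0.0526, adjusted p = 0.000648, edgeR) without overlap. BST2 (tetherin), which holds budding virions at the cell surface, had the highest level per kilobase of exon of the tested members, 130.0 CPM per kilobase in shKDM6B and 134.0 in shLuc cells, and did not pass (log2 fold change -0.04, adjusted p = 0.602, edgeR). RSAD2 (viperin, an enzyme that makes a chain-terminating nucleotide) had 2 counts in all in shKDM6B cells and 5 in shLuc cells, and the pro-apoptotic factor XAF1 had 3 in shKDM6B cells and 4 in shLuc cells.

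IFI6, an antiviral protein of the endoplasmic reticulum, had 9.42, 11.4 and 7.57 CPM in shKDM6B replicates 1 to 3, against 13, 13.6 and 13.2 CPM in shLuc replicates 1 to 3. The shKDM6B libraries were spread out and all below shLuc (log2 fold change -0.51 with an SE of 0.134, adjusted p = 0.00449, edgeR; 0.0518 by the DESeq2 Wald test, the highest of 16 alternatives). IFI16, a nuclear DNA sensor, was lower by a small margin (149 ± 7.26 CPM in shKDM6B and 163 ± 5.84 CPM in shLuc cells, SD, n = 3 each; log2 fold change -0.12 with an SE of 0.0461, adjusted p = 0.0383, edgeR). The call was lost under 7 of 16 alternatives, with adjusted p values of 0.0715 and 0.215 without shKDM6B replicates 2 and 3, 0.123 and 0.0595 without shLuc replicates 1 and 3, and at most 0.534, with scaling on sparsely counted genes. IFI35 did not pass (41.1 ± 0.375 CPM in shKDM6B and 40.5 ± 3.26 CPM in shLuc cells, SD, n = 3 each; adjusted p = 0.858, edgeR). IFI44 had 5, 2 and 3 counts in shKDM6B libraries, against 12, 9 and 14 counts in shLuc libraries, under the filter, and with no filter its log2 fold change was -1.82 (adjusted p = 0.00122, edgeR). IFI27 had 3, 3 and 5 counts in shKDM6B libraries and 2 in each shLuc library. IFI44L had 0 counts in all 6 libraries, which allows a level of up to 0.114 CPM in shKDM6B and 0.119 CPM in shLuc cells (3 counts over the group's total). Among the IFITM proteins, which hinder virus entry at membranes, IFITM1 passed as lower although its groups overlapped (11, 7 and 10 counts in shKDM6B libraries, against 10, 19 and 19 in shLuc libraries; log2 fold change -0.82 with an SE of 0.321, adjusted p = 0.0477, edgeR). That call was lost under 10 of 16 alternatives, with adjusted p values of 0.165, 0.128, 0.16 and 0.141 without shKDM6B replicates 2 and 3 and shLuc replicates 2 and 3, 0.13 without the 3 libraries with keratin counts, and at most 0.302. IFITM2 did not pass (adjusted p = 0.966, edgeR) and IFITM3 had 6 counts in all in shKDM6B cells and 4 in shLuc cells. Of the 50-base stretches of these 3 genes, 32% to 35.2% occur in other genes of GENCODE v29, other IFITM genes and AC136475.5 among them, so their counts are uncertain.

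Of the 8 regulators that make or read the interferon signal, 3 were lower (37.5%), 2 higher (25%) and 3 not past the threshold, against 18.9% lower and 20.1% higher among all tested genes. IRF9, the DNA-binding partner of STAT2, had 14, 10 and 20 counts in shKDM6B replicates 1 to 3, against 27, 22 and 30 counts in shLuc replicates 1 to 3. In CPM the highest shKDM6B value was 2.02 and the lowest shLuc value 2.48 (log2 fold change -0.89 with an SE of 0.268, adjusted p = 0.0109, edgeR). Its call was lost without shKDM6B replicate 2 (log2 fold change -0.71, adjusted p = 0.0662), by the DESeq2 Wald test (0.104) and without the 3 libraries with keratin counts (log2 fold change -0.52, adjusted p = 0.376, the highest of 16 alternatives). In GENCODE v29, 48.4% of the exon bases of IRF9 lie also in another gene, so its counts may hold other reads. STAT2 had 249, 251 and 258 CPM in shKDM6B libraries, against 286, 281 and 279 CPM in shLuc libraries. The values were tight within groups and did not overlap (log2 fold change -0.16 with an SE of 0.0425, adjusted p = 0.00465, edgeR). That call was lost with scaling on sparsely counted genes (adjusted p = 0.347, the highest of 16 alternatives) and without the 3 libraries with keratin counts (0.0736). IRF8, a lymphoid and myeloid regulator, was lower (26 ± 0.952 CPM in shKDM6B and 31.4 ± 3.64 CPM in shLuc cells, SD, n = 3 each; log2 fold change -0.29 with an SE of 0.0837, adjusted p = 0.00915, edgeR), but not past the threshold without shLuc replicate 3 (-0.2, adjusted p = 0.0746) or by the DESeq2 Wald test (0.0964, the highest of 16 alternatives).

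IRF5, which acts downstream of Toll-like receptors, was higher, with 237, 239 and 225 CPM in shKDM6B libraries and 195, 194 and 180 CPM in shLuc libraries. The groups were well apart (log2 fold change 0.3 with an SE of 0.0455, adjusted p = 1.71e-05, edgeR). IRF1, itself an interferon target and an activator of interferon-stimulated genes, was higher as well, with 164, 164 and 159 CPM in shKDM6B libraries and 142, 147 and 138 CPM in shLuc libraries (log2 fold change 0.19 with an SE of 0.0429, adjusted p = 0.0011, edgeR). Of the exon bases of IRF1, 22% lie also in other genes of GENCODE v29, C5orf56 among them. IRF7, which drives production of type I interferon, had 27.5, 29 and 30.8 CPM in shKDM6B libraries and 30.6, 31.5 and 29.8 CPM in shLuc libraries. These values overlapped and did not pass (log2 fold change -0.07, adjusted p = 0.501, edgeR). IRF3, the factor that turns on the interferon beta gene (-0.11, adjusted p = 0.0504), and IRF2, which competes with IRF1 (-0.09, adjusted p = 0.0779), did not pass in edgeR's test, though neither overlapped between groups. IRF3 passed under 5 of 16 alternatives and IRF2 under 2.

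Per kilobase of exon (GENCODE v29 lengths, CPM per kilobase), the tested genes spanned a wide range of levels. BST2, ADAR, IRF5 and STAT2 were highest, with ADAR at 72.3 in shKDM6B and 71.3 in shLuc cells, IRF5 at 53.4 in shKDM6B and 43.4 in shLuc cells, and STAT2 at 41.3 in shKDM6B and 46.2 in shLuc cells. At the other end were GBP6 at 0.188 in shKDM6B and 0.903 in shLuc cells, PARP9 at 0.216 in shKDM6B and 0.528 in shLuc cells, and GBP4 at 0.0494 in shKDM6B and 0.388 in shLuc cells. IFIT3 stood at 0.539 CPM per kilobase in shKDM6B and 4.63 in shLuc cells, and GBP1 at 1.64 in shKDM6B and 4.88 in shLuc cells. Of the sequence features, the response element core was present in 16 of 22 lower members with a listed promoter (72.7%), 1 of 3 higher members (33.3%), 3 of 7 members that did not pass (42.9%) and 6 of 7 untested members (85.7%). Among all tested genes it was in 376 of 9292 (4.05%). Of the 7 members lower by 2-fold or more, 6 had a listed promoter and 5 of these (83.3%) the core. None of the 6 held the gamma-activated sequence, which was in 771 of 9292 tested genes (8.3%), so its absence from 6 genes says little. Among the 22 lower members with a listed promoter, 6 held it (27.3%).

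Other genes of the interferon pathway, in 5 lists, showed no common direction. Of 93 genes, 67 were tested, with 22 lower (32.8%), 20 higher (29.9%) and 25 not past the threshold, against 18.9% lower and 20.1% higher among all tested genes, and a median log2 fold change of -0.02. With scaling on sparsely counted genes, 15 were lower and 19 higher. Without TLR3 and TRIM22, which reached the count filter only through shLuc libraries, 20 of 65 were lower and 20 higher, with a median of 0.03. Of 21 interferon genes none reached the filter: 19 had 0 counts in all 6 libraries, IFNG (interferon gamma) had 4 counts in all in shKDM6B cells and 10 in shLuc cells, and IFNL1 had 0 in shKDM6B cells and 1 in shLuc cells. Of 9 receptor chains and kinases, 2 were lower (22.2%), 5 higher (55.6%) and 2 not past the threshold. IFNAR1, a chain of the type I receptor, was higher at 307 ± 7.06 CPM in shKDM6B and 270 ± 1.74 CPM in shLuc cells (SD, n = 3 each; log2 fold change 0.19 with an SE of 0.043, adjusted p = 0.00139, edgeR). IFNLR1 of the type III receptor was higher too (0.19, adjusted p = 0.00196), whereas the shared chain IL10RB (-0.2, adjusted p = 0.00504) and IFNGR1 of the type II receptor (-0.26, adjusted p = 0.00713) were lower in edgeR's test. The IL10RB call was lost under 3 of 16 alternatives (adjusted p at most 0.329, without the 3 libraries with keratin counts) and that of IFNGR1 by the DESeq2 Wald test (0.0888). IFNAR2 was higher (0.12, adjusted p = 0.0471, edgeR), a call lost under 11 of 16 alternatives, with adjusted p values of 0.118 and 0.172 without shKDM6B replicates 1 and 2, 0.145 and 0.246 without shLuc replicates 2 and 3, 0.244 without the 3 libraries with keratin counts, and at most 0.246. The kinases JAK1 (0.03, adjusted p = 0.569) and TYK2 (-0.09, adjusted p = 0.113) did not pass in edgeR's test.

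Of 8 tested negative regulators, 1 was lower (12.5%), 3 higher (37.5%) and 4 not past the threshold, against 18.9% lower and 20.1% higher among all tested genes. PIAS3, an inhibitor of STAT proteins, was higher (log2 fold change 0.31, adjusted p = 2.64e-05, edgeR). The phosphatases PTPN11 (0.13, adjusted p = 0.0202) and PTPN6 (0.12, adjusted p = 0.0322) were higher, and SOCS1, an inhibitor of JAK kinases, was lower (-0.56, adjusted p = 0.0394) in edgeR's test. These 3 calls were lost under 5, 7 and 6 of 16 alternatives, with adjusted p values of at most 0.321 for PTPN11 (without the 3 libraries with keratin counts), 0.222 for PTPN6 and 0.249 for SOCS1. Leaving out a library raised the adjusted p of PTPN11 to 0.126 (shKDM6B replicate 2), 0.0778 and 0.0584 (shLuc replicates 1 and 3). It raised that of PTPN6 to 0.116 and 0.0743 (shKDM6B replicates 1 and 2) and to 0.0861 and 0.222 (shLuc replicates 2 and 3). For SOCS1 it was 0.0776 and 0.218 (shKDM6B replicates 2 and 3) and 0.0871 and 0.114 (shLuc replicates 2 and 3).

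Of 12 tested adaptors and sensors of nucleic acids, 2 were lower (16.7%), 4 higher (33.3%) and 6 not past the threshold, against 18.9% lower and 20.1% higher among all tested genes. AIM2, an interferon-inducible sensor of cytoplasmic DNA, fell to 10.6 ± 0.458 CPM in shKDM6B cells, against 22.6 ± 0.584 CPM in shLuc cells (SD, n = 3 each; log2 fold change -1.09, adjusted p = 1.01e-08, edgeR). TLR3, the endosomal sensor of double-stranded RNA, had 2, 3 and 0 counts in shKDM6B libraries, against 10, 16 and 12 counts in shLuc libraries. It reached the filter only through shLuc libraries, with no shKDM6B library at the minimum of 1.15 CPM. Its log2 fold change was -2.88 (adjusted p = 0.000156, edgeR), -3.58 without shKDM6B replicate 2 and -2.23 without shKDM6B replicate 3. Without the 3 libraries with keratin counts only the shKDM6B library with 0 counts was left, so its fitted value of -6.87 is no measure of size, and DESeq2 gave no adjusted p. TMEM173 (STING), the adaptor of DNA sensing (0.28, adjusted p = 0.000125), and the adaptor TRAF3 (0.2, adjusted p = 0.00231) were higher in edgeR's test.

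The list of 40 further interferon-induced genes, of which 38 were tested, had 17 lower (44.7%), 8 higher (21.1%) and 13 not past the threshold, against 18.9% lower and 20.1% higher among all tested genes. Its median log2 fold change was -0.16, and 4 genes fell by 2-fold or more, against 2.11% of all tested genes. TRIM22, an antiviral ubiquitin ligase, had 8, 5 and 17 counts in shKDM6B libraries, against 92, 99 and 109 counts in shLuc libraries (log2 fold change -3.36, adjusted p = 1.04e-10, edgeR). With 1 shKDM6B library at the minimum of 1.15 CPM, it reached the filter only through shLuc; without it, 16 of 37 were lower, 3 of them by 2-fold or more. TRANK1 stood at 23.4 ± 1.29 CPM in shKDM6B and 64.7 ± 4.27 CPM in shLuc cells (SD, n = 3 each; -1.47, adjusted p = 6.29e-13, edgeR). TRIM5, a factor that binds retroviral capsids, stood at 12.6 ± 0.273 CPM in shKDM6B and 27.9 ± 0.891 CPM in shLuc cells (SD, n = 3 each; -1.15, adjusted p = 1.05e-09, edgeR). Against these falls, LY6E, a membrane-anchored protein that hinders coronavirus entry, was higher at 46.3 ± 3.24 CPM in shKDM6B and 26.4 ± 3.07 CPM in shLuc cells (SD, n = 3 each; log2 fold change 0.8, adjusted p = 4.12e-08, edgeR).

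**Figure D5:**
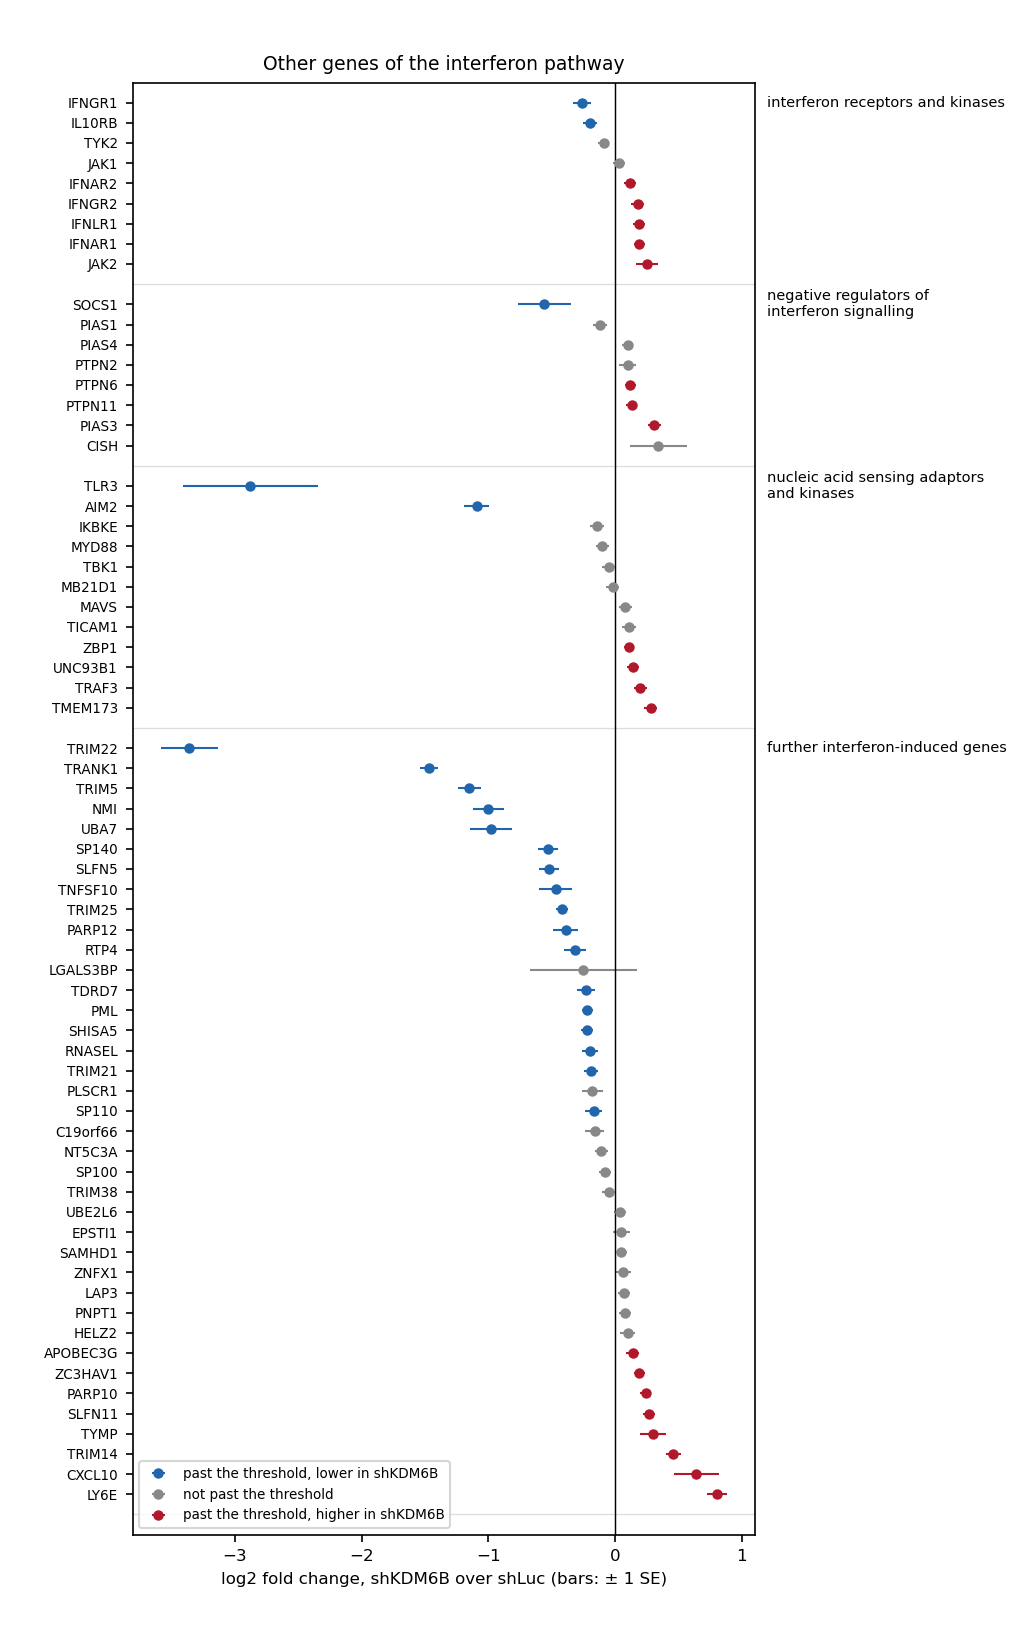
Log2 fold change, shKDM6B over shLuc, of the 67 tested genes in the other lists of the interferon pathway, grouped down the page. Points are edgeR estimates from 3 libraries per group with bars of ± 1 SE, in blue for lower, red for higher and grey for not past the threshold. Receptors, kinases, sensors and adaptors lie between -0.26 and 0.28 apart from TLR3 and AIM2, and TRIM22, TRANK1 and TRIM5 lie farthest to the left among the further interferon-induced genes.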

How the data were processed

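RNA of 3 shKDM6B and 3 shLuc MM.1S libraries was measured by RNA-seq. The authors deposited raw counts per gene symbol for each library for 56637 symbols; 1 further line per library, a gene name converted to a date, was not used. They also deposited a normalized signal, which for 56609 matched genes was the count over a library-wide factor (tolerance 1e-06). The submitters' processing notes name GRCh37 (hg19) and the tools DESeq, featureCounts and STAR; their versions, the annotation and the strand setting are not given there. The kit named in the labels does not mark strand as far as its name shows.

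The counts were tested with edgeR 4.0.16 (R 4.3.3): filterByExpr, TMM scaling and the quasi-likelihood test with the group as its only term, two-sided, with Benjamini-Hochberg adjustment over 13839 genes and a threshold of 0.05 on the adjusted p. The SE follows from the quasi-likelihood statistic, and CPM are TMM-scaled. Libraries held 7338393 to 9848351 counts, so genes near 1 CPM rest on about 10 counts per library. The fit was tested on simulated counts. Within groups, chi-square values per degree of freedom over genes with at least 20 counts ran from 1.29 to 2.09, so each library was counted as 1 sample. Levels per kilobase used exon lengths of GENCODE v29, and promoters came from RefSeq (GRCh38.p14, 39 of 52 genes matched). A planned comparison of protein sequences was replaced by the share of 50-base stretches that a gene's GENCODE v29 transcripts share with other genes.

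Alternatives were DESeq2 size factors, upper-quartile scaling, TMM scaling on 3205 sparsely counted genes (fewer than 0.03 counts per exon base), no filter, a filter of at least 1 CPM in 3 libraries, the replicate number as a block, each library left out in turn, the 3 libraries with keratin counts left out, limma-voom (limma 3.58.1), limma-trend on log2 of the deposited signal plus 1, DESeq2 1.42.0 with its Wald test, and an adjusted p under 0.01. Members, lists and alternatives were chosen with earlier results of these data known. All members are named. Values in every library are given for members past the threshold with an absolute log2 fold change of at least 0.4, for higher members and for STAT2, IRF9, IRF7 and IRF1; of each pathway list, up to 4 genes past the threshold with the smallest p are named, and JAK1, TYK2, IFNAR1 and IFNAR2. One gene planned for the receptor and kinase list was left out of its counts and is not reported here.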

Additional observations from a re-analysis of the deposited data

How the results depend on the processing

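Of the 28 members past the threshold, 15 stayed past it in the same direction under all 16 alternatives to which single genes were put: IFIT1, IFIT3, IFIT5, OAS1, DDX58, DHX58, ISG20, PARP9, PARP14, DTX3L, GBP1, GBP4, GBP6, IRF1 and IRF5. IFIT3, GBP4 and GBP6 among them reached the count filter only through shLuc libraries, so for these a lasting call says little. The share of all called genes that stayed past the threshold was not computed. The DESeq2 Wald test lost the most calls, with 14 members lower and 2 higher, 11 other pathway genes lower and 10 higher, and 3421 genes past the threshold against 5405. The median log2 fold change of tested members was -0.228 with scaling on sparsely counted genes, which moved the median of all genes to 0.053, and -0.348 without the 3 libraries with keratin counts, against -0.286. Without those libraries only 1 shKDM6B library was left, so counts of calls from that fit are not given. With all 6 libraries and an adjusted p under 0.01, 12 other pathway genes were higher, against 20. Leaving out 1 library gave medians of -0.357 to -0.242, 20 to 25 members lower and 2 to 3 higher. These counts run over all members that passed the filter of each such fit, including members untested in the main fit. They therefore understate the calls lost among the members tested there. Without shKDM6B replicate 2, for example, the lower calls of IFI16, OAS3, MX1, ISG15, IFITM1 and IRF9 were lost and no tested member gained a call. Signs turned only in genes that did not pass, the pathway gene UBE2L6 (-0.012 without the keratin libraries) among them: with scaling on sparsely counted genes BST2 (0.017) and SAMD9L (0.049), without the keratin libraries IFI35 (-0.014), ADAR (-0.01) and IRF7 (0.009). With 1 library left out, values ran from -0.019 to 0.085 for IFI35, -0.011 to 0.054 for ADAR, -0.245 to 0.256 for IFITM2, -0.097 to 0.022 for BST2 and -0.025 to 0.007 for SAMD9L. Same-numbered libraries had deviations correlated at 0.116, -0.0767 and 0.152, and differently numbered ones at -0.179 to 0.066. These values do not settle whether the numbers pair libraries. The labels do not say that they do, so the main fit had no block. With the replicate block no member call was lost, IRF2 (adjusted p = 0.0446, edgeR) and IRF3 (0.0188) were gained, and the median was -0.289. The causes of these changes were not tested. Depth limits the genes under about 1 CPM: 13 members were not tested, and counts of GBP4, GBP6, IFIT3 and TLR3 in shKDM6B libraries were few. Levels of IFITM genes, IRF9, GBP1, USP18 and XAF1 may hold or lack reads of other genes.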

Other observations

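Enzymes and partners of the interferon-stimulated genes differed among themselves as well; the 5 genes of this paragraph were chosen from the list of further interferon-induced genes after their values were seen. UBA7, the activating enzyme that hands ISG15 to its conjugation chain, had 3.82, 4.06 and 4.64 CPM in shKDM6B replicates 1 to 3, against 8.93, 8.24 and 7.82 CPM in shLuc replicates 1 to 3 (log2 fold change -0.98 with an SE of 0.163, adjusted p = 4.86e-05, edgeR). UBE2L6, the conjugating enzyme of the same chain, had 90.3 to 96.3 CPM in shKDM6B libraries and 89.3 to 93.2 CPM in shLuc libraries, which overlap and did not pass (adjusted p = 0.545, edgeR). Within this chain the activating enzyme was thus lower and the conjugating enzyme not past the threshold. NMI, the binding partner of IFI35, had 8.36 to 9.39 CPM in shKDM6B libraries, against 15.2 to 19.2 CPM in shLuc libraries (log2 fold change -1.0 with an SE of 0.12, adjusted p = 6.97e-07, edgeR), while IFI35 itself did not pass. TRIM25, a ubiquitin ligase that acts on RIG-I, had 235 to 240 CPM in shKDM6B libraries, against 305 to 329 CPM in shLuc libraries (log2 fold change -0.42 with an SE of 0.0445, adjusted p = 1.31e-07, edgeR). CXCL10, a chemokine classically induced by interferon gamma, went the other way, with 7.13, 7.89 and 8.18 CPM in shKDM6B libraries and 3.84, 4.52 and 6.39 CPM in shLuc libraries. The groups did not overlap, and shLuc replicate 3 came closest to shKDM6B (log2 fold change 0.64 with an SE of 0.177, adjusted p = 0.00652, edgeR). That call was lost without the 3 libraries with keratin counts (adjusted p = 0.0513) and by the DESeq2 Wald test (0.0569, the highest of 16 alternatives).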
